A study of Mus musculus with 14 samples.

Results

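Long-term hematopoietic stem cells (LT-HSCs) of Dnmt1 knockout mice were compared with multipotent progenitors (MPPs) of Dnmt1 knockout mice, to see which differences between the 2 populations were still measured after deletion of this gene. The comparison used the 4 of 14 arrays of the series that carry the Cre+ label in these populations, 2 of knockout LT-HSCs and 2 of knockout MPPs, chosen by their labels alone. All mice had floxed Dnmt1 alleles (Dnmt1fl/fl) on a C57BL/6 background and were 8 to 12 weeks old. In knockout mice an Mx-Cre transgene was present, whose Cre recombinase is made in many cell types in answer to interferon, here raised by poly(I)poly(C), a synthetic double-stranded RNA. Control mice lacked the transgene but got the same 7 injections at 25 µg per kg on alternate days, so both genotypes had the interferon stimulus. The marrow was collected 4 days after the final dose, and each array holds cells of 4 to 6 pooled mice of 1 genotype, so that an error describes pools and not single mice. Marrow cells without mature lineage markers were sorted as c-Kit+ Sca-1+ CD34- (LT-HSCs) or c-Kit+ Sca-1+ CD34+ (MPPs). The control LT-HSC and control MPP arrays, 2 each, are set beside the knockout arrays, and the 6 arrays of myeloid progenitors entered the fit only to help estimate the spread between replicates.

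Dnmt1 copies the methylation of CG dinucleotides onto newly made DNA strands at each cell division, and its loss dilutes methylation as cells divide. LT-HSCs are the rarely dividing cells at the root of blood formation, and MPPs are their more actively dividing offspring, in which genes of the later lineages begin to be transcribed. Genes of neutrophil granules are typical of progenitors on the myeloid path, and Pax5 and Ebf1 are transcription factors that direct cells to the B lineage.

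Differences are LT-HSC minus MPP in units of log2(intensity + 16), each with its standard error (SE) from limma, so that a positive value means a higher signal in LT-HSCs and 1 unit stands for a doubling of bright signals. Values per array are the deposited intensities. A gene was called at a Benjamini-Hochberg adjusted p below 0.05 over the 8608 genes tested. The median SE of a gene was 0.35 (n = 2 arrays per group), and the median difference of all genes tested was -0.01.

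The arrays were first checked against their labels. Dnmt1 (Entrez Gene 13433) had 1170 and 1305 units on the knockout LT-HSC arrays and 1141 and 745 units on the knockout MPP arrays, against 2219 and 1818 units on the control LT-HSC arrays and 1518 and 1596 units on the control MPP arrays. All 4 knockout arrays were thus below all 4 control arrays, although the probes may lie outside the deleted part. Between knockout LT-HSCs and knockout MPPs Dnmt1 did not pass the test, at 0.56 ± 0.26 (adjusted p = 0.496), and another of its probe sets gave 0.37. Cd34, the surface receptor that separated the populations in the sort, had 20.5 and 68.9 units in knockout LT-HSCs against 615 and 310 units in knockout MPPs. It was lower by the fit, at -3.07 ± 0.60 (adjusted p = 0.0387), which restates the sort. Kit, the receptor on which both populations were selected, was at -0.76 ± 0.39 (adjusted p = 0.552), but its other probe set gave 0.42. Stem cell genes did not separate the knockout populations: of 20 tested, 9 were higher and 11 lower in LT-HSCs, with a median of -0.08, 0 called by limma and 0 with an unadjusted p below 0.05. The hepatic leukemia factor gene Hlf, a transcription factor of stem cells, had 210 and 326 units in knockout LT-HSCs against 646 and 332 units in knockout MPPs. "LT-HSC" is therefore used here as the name of the sort gate.

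Some arrays stood apart from the other array of their group. Median intensities lay between 41.1 and 49.1 over the 14 arrays. The 2 knockout LT-HSC arrays correlated with r = 0.900 over genes, whereas the second of them correlated with the second knockout MPP array at 0.947. The first knockout LT-HSC array had a Gapdh 3'/5' signal ratio, a sign of RNA integrity, of 5.15, against 2.46 on the second and 2.66 and 2.53 on the knockout MPP arrays. In control mice the ratio was 5.44 and 3.07 on the LT-HSC arrays against 2.86 and 2.44 on the MPP arrays, so that the first LT-HSC array was the highest of the 4 in both genotypes. The 3'/5' ratio of Actb went the other way. It was 1.09 on the second knockout LT-HSC array and 0.833 and 1.08 on the knockout MPP arrays. In control mice the same arrays had 0.968, 1.04 and 1.10. The first LT-HSC arrays had the lowest Actb ratio of the 4 in each genotype, 0.754 in knockout and 0.808 in control mice. Without these 2 arrays, an alternative added after seeing the data, 14 genes were called in knockout cells and 12 in both genotypes, against 44 and 33 with all arrays. In knockout cells markers of mature granulocytes also went with the array number more than with the population. Their summed signal was 243 and 7343 units in knockout LT-HSCs and 700 and 7197 units in knockout MPPs. In control cells both MPP arrays were above both LT-HSC arrays, with 2476 and 3848 units against 620 and 1863 units. S100a9, a calcium-binding protein of neutrophils, had 7.62 and 3131 units in knockout LT-HSCs against 184 and 3225 units in knockout MPPs. The part of granulocyte signal in the results below was not tested.

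Between knockout LT-HSCs and knockout MPPs 44 genes were called, 0.511% of those tested, with 25 higher in LT-HSCs (0.290%) and 19 lower (0.221%). The higher genes with the 6 largest differences were Cd79a, Pklr, Pax5, Blnk, Sdc4 and Ebf1, of which 4 belong to the B lineage. The granule protease genes Ctsg and Elane had the largest differences among the lower ones. At an unadjusted p below 0.05, 873 genes (10.1%) differed, 417 higher (4.84%) and 456 lower (5.30%). In all 44 called genes the 2 arrays of one population lay wholly above the 2 of the other, which was so for 31.2% of all genes tested. The calls leaned on the spread of all 14 arrays: the fit of the 8 LT-HSC and MPP arrays alone called 2 genes, Ctsg and Ccl9 (adjusted p = 0.0143 for each), while all 44 had an unadjusted p below 0.05 in it.

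Single arrays also moved the number of calls. Without the first or the second knockout LT-HSC array the fit called 10 or 277 genes, and without the first or the second knockout MPP array it called 24 or 7. Of the 44 genes, 9, 43, 18 and 5 were again called in these 4 fits. The 5 that passed in each of the 4 fits were Ctsg, Ccl9, Gm2a, Il2rb and Chchd10. All 44 kept their direction in every fit that was tried. The plot of calls by fit shows how the numbers depend on which arrays set the spread.

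**Figure D1:**
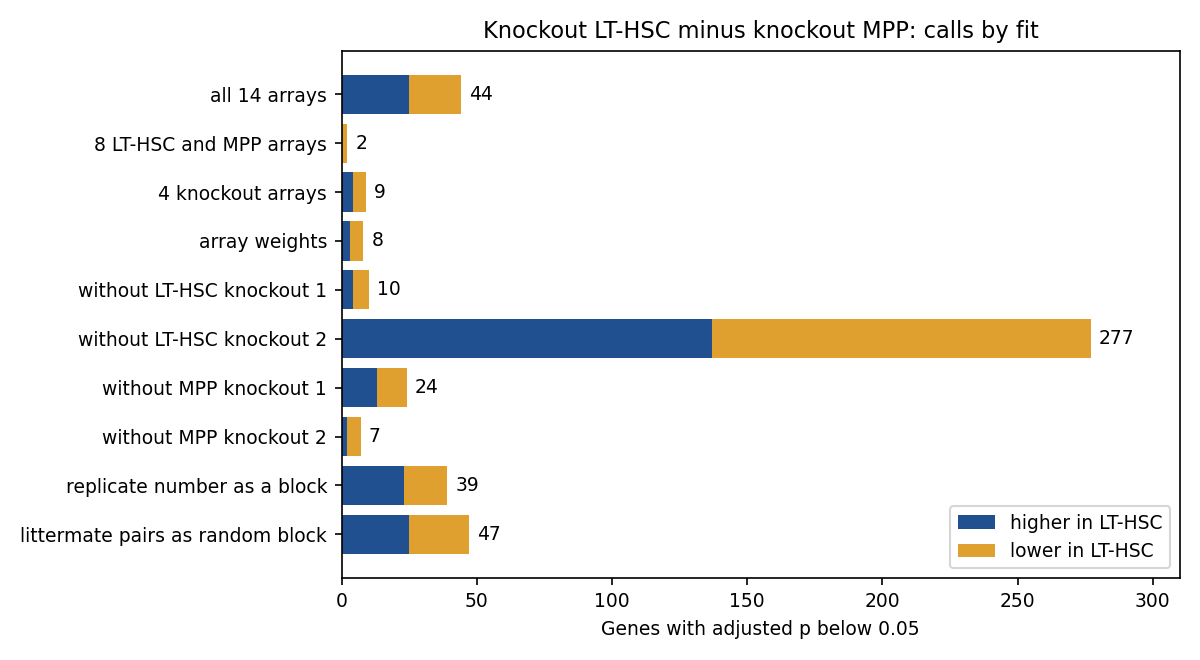
Number of genes with an adjusted p below 0.05 in knockout LT-HSCs minus knockout MPPs (horizontal axis), split into genes higher and lower in LT-HSCs, for the fit of all 14 arrays and 9 other fits (rows). The count is 44 with all 14 arrays, 2 with the 8 LT-HSC and MPP arrays, and 7 to 277 when 1 knockout array is left out.

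The regions upstream of 2 called B lineage genes, Cd79a and Pax5, and of 2 called granule genes, Ctsg and Elane, are shown because Dnmt1 acts on CG dinucleotides. Each is the 250 bases before the gene's start in RefSeq (assembly GRCm38.p6), read 5′ to 3′ along the gene's own strand, with each CG in capitals.
Cd79a, chr7:24897247-24897496, plus strand: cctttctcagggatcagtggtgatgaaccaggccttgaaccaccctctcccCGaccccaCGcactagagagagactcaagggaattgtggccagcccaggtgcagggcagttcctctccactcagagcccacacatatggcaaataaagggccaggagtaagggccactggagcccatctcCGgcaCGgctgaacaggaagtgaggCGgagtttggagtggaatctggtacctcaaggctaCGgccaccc
Pax5, chr4:44710695-44710944, minus strand: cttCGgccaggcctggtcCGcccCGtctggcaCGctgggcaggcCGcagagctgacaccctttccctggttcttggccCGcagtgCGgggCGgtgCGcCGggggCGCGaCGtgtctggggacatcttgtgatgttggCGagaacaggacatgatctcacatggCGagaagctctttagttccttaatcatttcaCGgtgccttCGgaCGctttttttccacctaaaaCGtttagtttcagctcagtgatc
Ctsg, chr14:56102575-56102824, minus strand: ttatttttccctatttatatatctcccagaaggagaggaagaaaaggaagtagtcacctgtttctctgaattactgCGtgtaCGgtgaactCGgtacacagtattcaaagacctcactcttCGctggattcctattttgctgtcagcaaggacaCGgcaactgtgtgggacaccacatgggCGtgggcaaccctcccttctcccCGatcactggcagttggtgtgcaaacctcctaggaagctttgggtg
Elane, chr10:79886062-79886311, plus strand: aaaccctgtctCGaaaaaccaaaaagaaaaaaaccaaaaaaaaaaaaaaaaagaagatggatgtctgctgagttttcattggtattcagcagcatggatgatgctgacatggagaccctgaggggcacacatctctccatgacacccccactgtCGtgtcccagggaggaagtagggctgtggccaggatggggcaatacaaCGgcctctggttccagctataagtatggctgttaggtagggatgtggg
The window of Pax5 held 19 CG dinucleotides, and those of Cd79a, Ctsg and Elane held 6, 7 and 3. Over the 7034 of 8608 genes tested that had a window, the median was 16 (quartiles 9 and 23), and 99% of windows held at least 1 CG on either strand, since CG reads the same on both. Methylation itself was not measured on these arrays.

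Genes of the B lineage were higher in knockout LT-HSCs. Of 16 B cell markers tested, 15 had a positive difference, 12 had both LT-HSC arrays above both MPP arrays (15.7% of all genes tested) and 6 were called, and the median difference was 2.13, against -0.01 over all genes. Cd79a, a signalling chain of the B cell receptor, had 1380 and 320 units in knockout LT-HSCs against 67.8 and 3.34 units in knockout MPPs. Both LT-HSC arrays stood above both MPP arrays, the first array of each population being the higher one. The difference was 4.15 ± 0.78 (adjusted p = 0.0360, n = 2 per group). Pax5 (Entrez Gene 18507), the transcription factor that holds cells in the B lineage, had 627 and 224 units against 44.8 and 8.91 units, a difference of 3.37 ± 0.57 (adjusted p = 0.0222). Ebf1, which acts ahead of Pax5, had 434 and 185 units in knockout LT-HSCs against 42.5 and 3.75 units in knockout MPPs, a difference of 3.18 ± 0.61 (adjusted p = 0.0387). Its other probe sets gave 2.18 and 2.59, so the direction did not rest on 1 probe set.

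Blnk, the adaptor that links the B cell receptor to its signalling enzymes, was even within each population, with 284 and 207 units in knockout LT-HSCs against 11.4 and 11.6 units in knockout MPPs (3.31 ± 0.52, adjusted p = 0.0151). Vpreb3, which binds nascent chains of the pre-B cell receptor, was higher by 2.14 ± 0.38 (adjusted p = 0.0267), and Cd79b, the partner chain of Cd79a, by 2.11 ± 0.43 (adjusted p = 0.0494). The 10 markers that were not called lay between -0.45 for Cd72 and 4.64 for Igll1, a surrogate light chain of the pre-B cell receptor. Among them Pou2af1, a coactivator of B cells, was at 3.83 (adjusted p = 0.113), Blk, a B cell kinase, at 1.88 (adjusted p = 0.0593) and Ms4a1, which encodes CD20, at 0.01. These 5 genes were chosen after their values were seen. The summed signal of the B cell markers was 13683 and 9258 units in knockout LT-HSCs against 4848 and 1916 units in knockout MPPs, and 18699 and 10431 units in control LT-HSCs against 3052 and 2042 units in control MPPs. In RNA of sorted pools, more cells of the B lineage and more of this RNA per cell cannot be told apart. Without the first knockout LT-HSC array or the second knockout MPP array limma called 0 of the 6 again, each of which had an unadjusted p below 0.05 in the fit of 8 arrays (left-out fits: adjusted p = 0.166 to 0.408, and 0.0887 to 0.240), and without the first knockout MPP array 4 did.

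Granule genes of myeloid progenitors were lower in knockout LT-HSCs. Of 15 tested, 14 had a negative difference, 13 had both LT-HSC arrays below both MPP arrays (15.5% of all genes) and 7 were called lower, with a median of -2.34. Ctsg (Entrez Gene 13035), the serine protease cathepsin G of neutrophil granules, had 36.3 and 9.66 units in knockout LT-HSCs against 1836 and 2377 units in knockout MPPs. The populations were far apart on both arrays, with a difference of -5.79 ± 0.62 (adjusted p = 0.00131, n = 2 per group). Elane (Entrez Gene 50701), neutrophil elastase, had 38.9 and 20.2 units against 471 and 1519 units, a difference of -4.24 ± 0.66 (adjusted p = 0.0151). Mpo, the myeloperoxidase of the same granules, had 758 and 173 units in knockout LT-HSCs against 4453 and 4950 units in knockout MPPs. It was the brightest of these genes in MPPs, and its difference was -3.52 ± 0.50 (adjusted p = 0.00926).

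Prtn3, the granule protease proteinase 3, had 458 and 189 units in knockout LT-HSCs against 1556 and 1751 units in knockout MPPs (-2.34 ± 0.36, adjusted p = 0.0151). Cebpa, the transcription factor that starts the granulocyte programme, was lower too, with 94.8 and 37.6 units against 356 and 369 units (-2.29 ± 0.39, adjusted p = 0.0222). Ms4a3, a membrane protein of granulocyte and monocyte progenitors, was at -4.19 ± 0.62 (adjusted p = 0.0126), and Gstm1, a glutathione transferase, at -2.19 ± 0.35 (adjusted p = 0.0165). The probe set of Gstm1 is of the _x_ kind, which may bind other transcripts, and the other 3 of the gene gave -2.35, -0.73 and -0.07, the last 2 from dimmer probe sets. The summed signal of the 15 genes was 5335 and 5077 units in knockout LT-HSCs against 16340 and 21625 units in knockout MPPs. Mature granulocyte markers were at a median of -0.15 in knockout cells, where 10 of 12 were negative. Of these 12, 0 were called by limma or had an unadjusted p below 0.05. That median lay between -1.19 and 1.20 when 1 array was left out. In control cells their median was -0.85, and 12 of 12 were negative. Of the 7 granule gene calls, 4 and 7 remained without the first or the second knockout LT-HSC array, and 5 and 1 without the first or the second knockout MPP array.

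**Figure D2:**
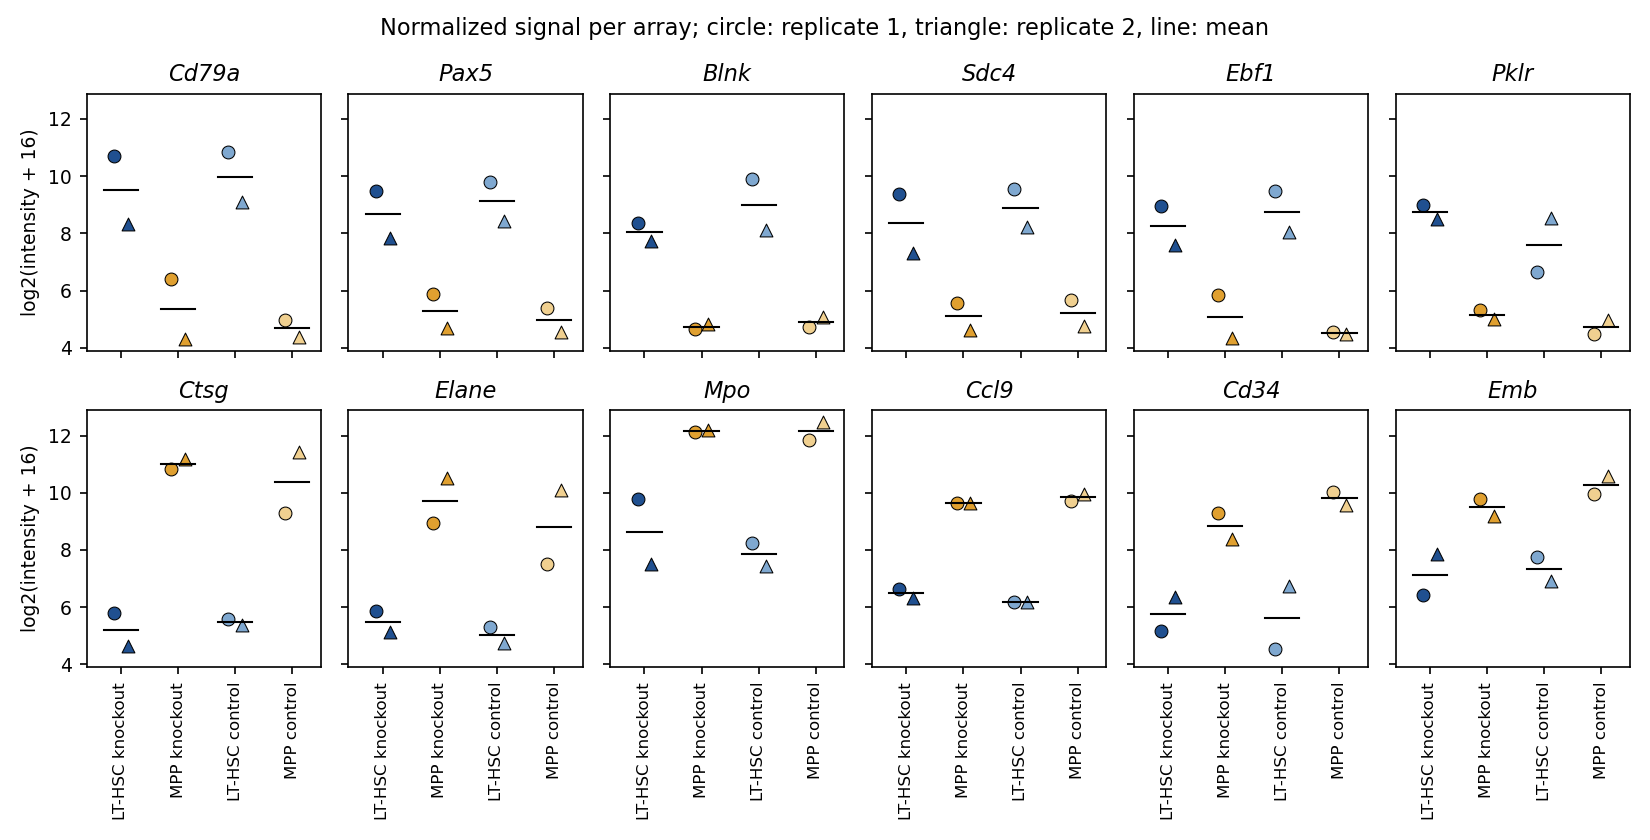
Normalized signal, log2(intensity + 16), on each array (vertical axis) of the 6 genes in each direction with the largest difference in both genotypes, for knockout LT-HSCs, knockout MPPs, control LT-HSCs and control MPPs (2 arrays each; lines are means). In the upper row both LT-HSC arrays lie above both MPP arrays in each genotype, and in the lower row below them, as for Cd79a at 4.15 and Ctsg at -5.79 in knockout cells.

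Other genes higher in knockout LT-HSCs came from several lineages. Il2rb, a receptor chain through which T and NK cells sense the cytokines IL-2 and IL-15, had 221 and 240 units in knockout LT-HSCs against 10.2 and 22.0 units in knockout MPPs, and was higher by 3.07 ± 0.37 (adjusted p = 0.00213). It passed in each fit that left out a knockout array, although its second, dimmer probe set gave 0.82. Pklr, the pyruvate kinase of liver and red cells, had 452 and 361 units against 26.5 and 15.3 units (adjusted p = 0.00477), and its other probe sets differed by 3.31 and 1.20. Chchd10, a mitochondrial protein gene, had 1880 and 1589 units in knockout LT-HSCs against 368 and 334 units in knockout MPPs. Its arrays were close within each population, and the difference was 2.33 ± 0.27 (adjusted p = 0.00174). Mt2, a metallothionein that binds zinc and copper, chosen after its values were seen, had 1320 and 971 units against 335 and 263 units (1.98 ± 0.37, adjusted p = 0.0355).

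Sdc4, a heparan sulfate proteoglycan of the cell surface, was higher by 3.24 ± 0.61 (adjusted p = 0.0383), Rsph9, a radial spoke protein of cilia, by 3.02 ± 0.59 (adjusted p = 0.0387) and Enpep, an aminopeptidase of early B cells and kidney, by 2.17 ± 0.33 (adjusted p = 0.0141). Enpep had 65.9 and 56.6 units in knockout LT-HSCs against 1.83 and 1.08 units in knockout MPPs, so that the pseudocount sets the size of its difference. Rhoc, a small GTPase of the cytoskeleton, had 293 and 109 units in knockout LT-HSCs against 19.18 and 19.62 units in knockout MPPs (2.57 ± 0.41, adjusted p = 0.0168). Its probe set is of the _s_ kind, and the other probe set of the gene, at 0.02, reached no more than 6.64 units on any array, so the signal is not settled as that of Rhoc. The other 11 calls that were higher and not in the B cell list ran from 1.45 to 2.08, among them Ank1, the ankyrin of the red cell membrane, at 2.08 and Cd7, a receptor of T and NK cells, at 1.45. Igf2r, an imprinted receptor gene, was at 1.82, but its other probe set gave 0.12. Of these 19 calls outside the B cell list 3 and 18 remained without the first or the second knockout LT-HSC array, and 5 and 2 without the first or the second knockout MPP array.

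Outside the granule list 12 genes were called lower in knockout LT-HSCs. Ccl9, a chemokine of myeloid cells, was the most evenly measured of them, with 75.3 and 67.4 units in knockout LT-HSCs against 792 and 802 units in knockout MPPs. Its difference was -3.16 ± 0.24 (adjusted p = 4.62e-05), and it passed in every fit that was tried. Csf2rb, the shared receptor chain for GM-CSF, IL-3 and IL-5, had 25.9 and 62.6 units against 313 and 329 units (-2.59 ± 0.43, adjusted p = 0.0191). Emb, a cell adhesion protein, had 64.8 and 223 units against 880 and 575 units (-2.36 ± 0.44, adjusted p = 0.0355). Fbp1, an enzyme of gluconeogenesis, was lower, at -2.11 ± 0.41 (adjusted p = 0.0387) and Gm2a, a lysosomal lipid-binding protein, at -1.44 ± 0.17 (adjusted p = 0.00174). Gm2a, named because it passed without each knockout array, had 679 and 956 units in knockout LT-HSCs against 2385 and 2374 units in knockout MPPs. The others were Cd34 and, between -1.33 and -1.87, Tyrobp, Adssl1, Rab31, Fut7, Msrb1 and Ramp1, the last 6 named to complete the list after their values were seen. Of these 12 calls 2 and 12 remained without the first or the second knockout LT-HSC array, and 4 and 2 without the first or the second knockout MPP array.

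The same populations of control mice showed which of these differences were present with Dnmt1. Between control LT-HSCs and control MPPs 200 genes (2.32%) were called, 98 higher (1.14%) and 102 lower (1.18%), from arrays that the knockout comparison does not use, although all arrays share the estimate of spread and control and knockout mice were littermates. Both comparisons called 33 genes with the same sign, 18 higher and 15 lower in LT-HSCs, and 0 genes with opposite signs by limma at an adjusted p below 0.05. The 33 make up 75% of the knockout calls and 16.5% of the control calls. Of all 44 knockout calls, 42 had control arrays that did not overlap in the same direction, as had 1352 of the 8608 genes tested in both genotypes. All 6 called B cell markers and 6 of the 7 called granule genes, all but Ms4a3, were among the 33. Without the first or the second knockout LT-HSC array the count of genes called in both was 9 or 79, without the first or the second knockout MPP array 19 or 5, and without the second control LT-HSC array 53. With each genotype fitted on its own 4 arrays, an alternative added after seeing the data, it was 5.

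Ctsg was at -5.79 in knockout and -4.89 in control cells, a difference between the genotypes of -0.91 with a 95% interval of -2.79 to 0.98. Mpo was at -3.52 in knockout and -4.31 in control cells, with an interval of -0.73 to 2.31 for the difference. Ccl9, at -3.16 and -3.67, had the narrowest of the intervals given here, from -0.23 to 1.24. Cd79a was at 4.15 in knockout and 5.30 in control cells, with an interval of -3.51 to 1.21, and Pax5 was at 3.37 and 4.15, with an interval of -2.52 to 0.97. For Ctsg, Mpo, Cd79a and Pax5 the intervals reach more than 1 unit to either side of their centre, so that a genotype difference of 1 unit was not detectable in them. Across all 8608 genes the knockout and control differences correlated with a Pearson r of 0.66 and a Spearman rho of 0.57, over genes that share arrays and are not independent.

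**Figure D3:**
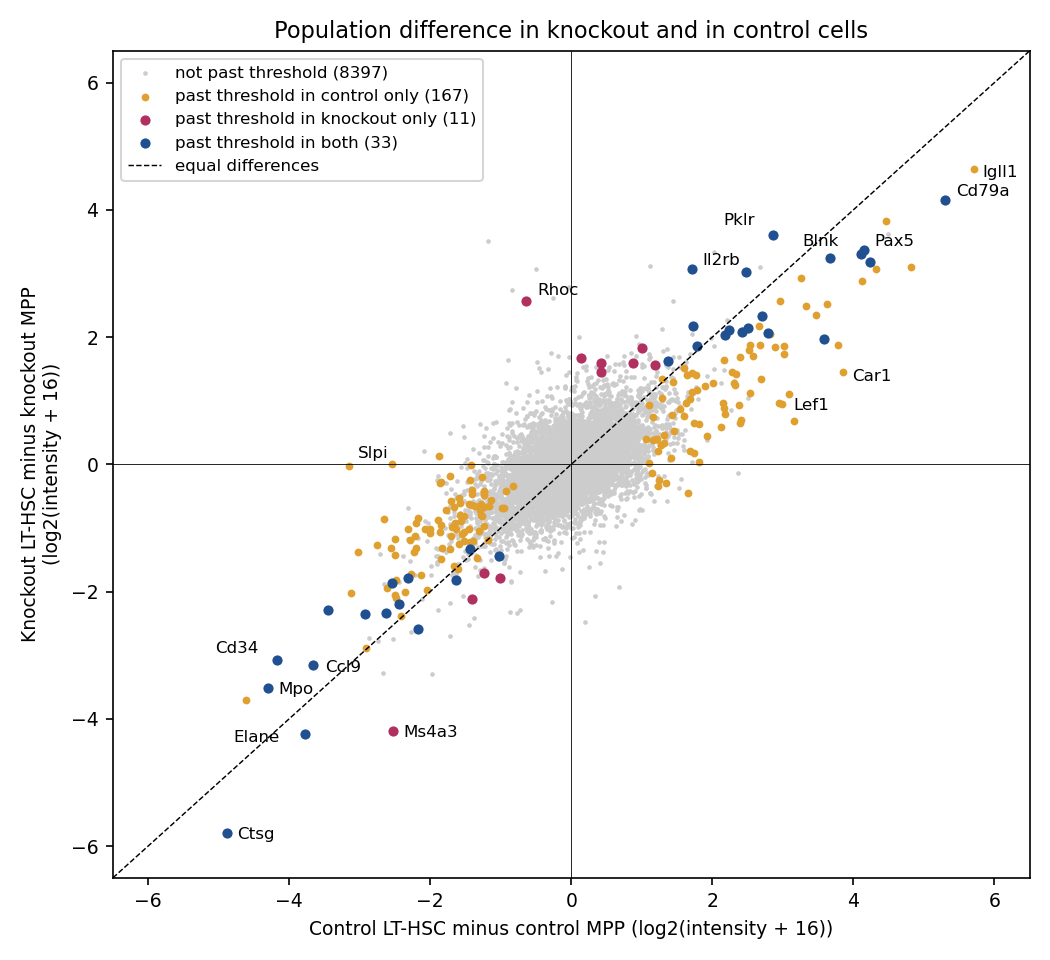
LT-HSC minus MPP difference in knockout cells (vertical axis) against the same difference in control cells (horizontal axis), both in log2(intensity + 16), for the 8608 genes tested. The 33 genes called in both genotypes lie in the upper right and lower left quadrants, and 185 of the 200 genes called in control cells have the larger difference there.

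The control calls were read in the knockout arrays as well. Of the 200, 193 had the same sign in knockout cells. The knockout arrays of 176 (88%) did not overlap in the same direction, against 15.7% (LT-HSCs above) and 15.5% (below) of all genes. An unadjusted p below 0.05 with the same sign was found for 142 (71%), against 10.1% of all genes in either direction. The median size of the 200 was 1.17 in knockout cells and 1.88 in control cells, and 185 of them were larger in control cells. These genes were chosen on the control values, which favours a larger value there. Among the 44 genes chosen on the knockout values the median sizes were 2.15 in knockout and 2.44 in control cells, and 22 of 44 were larger in knockout cells. A smaller number of calls in knockout cells does not in itself show that the populations were closer.

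The test of the difference between the genotypes called 0 genes by limma (0.00%), with 123 genes more positive and 137 more negative in knockout cells at an unadjusted p below 0.05 (3.02% of all). By sign, 10 of the 11 genes called in knockout cells alone pointed the same way in control cells, where 7 had an unadjusted p below 0.05. The exception was Rhoc, at 2.57 in knockout and -0.64 in control cells, which had 3.98 and 2.00 units in control LT-HSCs against 23.7 and 6.81 units in control MPPs. The genotype difference of Rhoc, 3.20 ± 0.59 with a 95% interval of 1.94 to 4.47, missed the threshold (adjusted p = 0.841) and passed with the littermate pairs as a random block (adjusted p = 0.0373) and without the second knockout LT-HSC array (adjusted p = 0.0166). Over all its alternatives the adjusted p lay between 0.0166 and 1.00. Ankrd33b, an ankyrin repeat protein gene, also passed with the random block (adjusted p = 0.0411, with 0.0411 to 1.00 over its alternatives). It had 3.17 and 12.5 units in knockout LT-HSCs against 16.1 and 17.3 units in knockout MPPs, and 65.9 and 74.1 units in control LT-HSCs against 14.3 and 10.1 units in control MPPs. The genotype difference was -2.11 ± 0.42 (adjusted p = 0.922). Lef1, a DNA-binding partner of beta-catenin that early lymphocytes need, had 22.7 and 21.0 units in knockout LT-HSCs against 3.80 and 2.89 units in knockout MPPs, and 193 and 101 units in control LT-HSCs against 3.91 and 3.14 units in control MPPs. Its genotype difference was -2.05 ± 0.46 (adjusted p = 0.999).

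The gene lists were set side by side in both genotypes by their medians, which are descriptions. B cell markers were at 2.13 in knockout and 2.83 in control cells, granule genes at -2.34 and -2.52, and erythroid markers at 0.89 and 1.31. Of 18 erythroid markers 16 were positive in knockout cells and 1 was called, Ank1. Klf1, Car1 and Ermap, genes of red cell precursors, were at 0.96, 1.44 and 1.11 in knockout cells and 2.94, 3.86 and 3.09 in control cells. Each had an unadjusted p below 0.05 for the genotype difference, as had 3.02% of all genes, and they were named after their values were seen. Car1, a carbonic anhydrase of red cells, had 930 and 1787 units in knockout LT-HSCs against 436 and 565 units in knockout MPPs, and 700 and 2449 units in control LT-HSCs against 41.1 and 146 units in control MPPs. The smaller difference thus went with a higher signal in knockout MPPs. In knockout cells 2 T and NK cell markers of 18 were called, Il2rb and Cd7 (0.511% of all genes). At an unadjusted p below 0.05, 9 were higher and 1 lower (4.84% and 5.30% of all genes). Of the 18, 14 were positive in knockout and 15 in control cells, with a median of 1.11 in knockout and 0.11 in control cells. Il2rb, Cd7 and Eomes, which directs NK cell development, had an unadjusted p below 0.05 for the genotype difference, as had 3.02% of all genes. Of the 18, 0 passed the adjusted threshold by limma. The summed signal of the 18 was 2593 and 3816 units in knockout LT-HSCs against 1924 and 2196 units in knockout MPPs. In control cells it was 1515 and 1882 units in LT-HSCs against 1715 and 1914 units in MPPs.

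**Figure D4:**
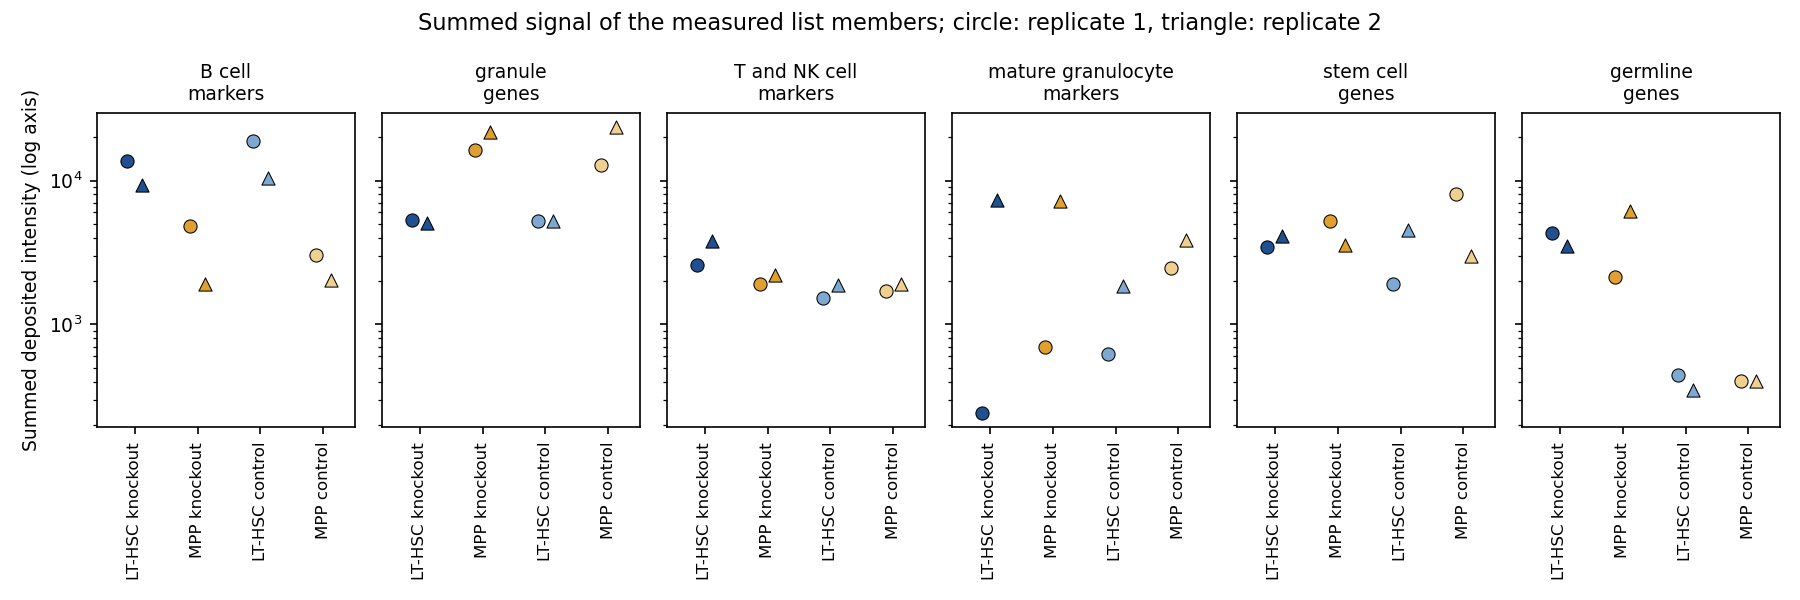
Summed deposited intensity (vertical log axis) of the measured members of 6 gene lists on each of the 8 LT-HSC and MPP arrays, with knockout groups left of control groups. B cell markers are higher in LT-HSCs and granule genes in MPPs in both genotypes. Mature granulocyte markers are high on the second array of both knockout populations, at 7343 and 7197 units. Germline genes, which could pass the filter through knockout arrays alone, are higher on the knockout arrays.

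Lymphoid priming genes were at a median of 0.72 in knockout and 0.41 in control cells, with 1 of 14 called in knockout cells, Blnk. That median was -0.33 without the second knockout MPP array. Il7r, the IL-7 receptor, had 145 and 324 units in knockout LT-HSCs against 57.4 and 13.5 units in knockout MPPs, which did not pass (2.34 ± 0.69, adjusted p = 0.200). The list was split in knockout cells, with 8 genes positive and 6 negative. At an unadjusted p below 0.05, 5 were higher and 2 lower (4.84% and 5.30% of all genes). Flt3, a receptor in this list, had 13.5 and 105 units in knockout LT-HSCs against 308 and 112 units in knockout MPPs (-1.85 ± 0.71, adjusted p = 0.386). Mast cell, basophil and eosinophil markers had a negative difference in 13 of 13 genes in knockout cells, where 48.9% of all genes tested were positive, with a median of -1.46 in knockout and -0.87 in control cells, and 0 were called by limma while 7 were lower at an unadjusted p below 0.05 (5.30% of all genes). Prg2, the eosinophil major basic protein, had 213 and 43.9 units in knockout LT-HSCs against 852 and 2923 units in knockout MPPs (-3.70 ± 1.03, adjusted p = 0.179). Monocyte and macrophage markers were at -0.96 in knockout and -1.34 in control cells, with 0 of 16 called by limma and 6 lower at an unadjusted p below 0.05. Fcgr3, an Fc receptor of myeloid cells, had 59.8 and 60.4 units in knockout LT-HSCs against 263 and 566 units in knockout MPPs (-2.39 ± 0.50, adjusted p = 0.0544).

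In the lists of cell division 0 genes were called between the knockout populations by limma. An unadjusted p below 0.05 was found for 2 of 28 mitosis genes, 2 of 26 replication genes and 2 of 11 cell cycle inhibitors. The share over all genes was 10.1%. Mitosis genes had a median of 0.05 in knockout cells, with 16 of 28 positive, and of 0.63 in control cells, with 27 of 28 positive. Of them 5 had an unadjusted p below 0.05 for the genotype difference, against 3.02% of all genes, and 0 passed the adjusted threshold by limma. Ckap2, a spindle protein, had 148 and 183 units in knockout LT-HSCs against 236 and 193 units in knockout MPPs, and 517 and 424 units in control LT-HSCs against 186 and 202 units in control MPPs. DNA replication genes had a median of 0.09 in both genotypes, and cell cycle inhibitors were at 0.42 in knockout and 0.46 in control cells. The median of the inhibitors was -0.25 without the first knockout LT-HSC array. The Cdk inhibitor gene Cdkn1a, a target of p53, was at 0.77 ± 0.32 (adjusted p = 0.429), but its other probe set gave -0.45.

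Germline genes are known to be silenced by DNA methylation. Of 29 on the array 17 were tested, and the filter could admit a gene through knockout arrays alone. The list was also drawn up with earlier results of these data known, so that its sum is no test of the genotypes. The summed signal of the 17 was 4327 and 3483 units in knockout LT-HSCs and 2140 and 6100 units in knockout MPPs. It was 352 to 448 units on the 4 control arrays. Tex19.1, which is active in germ cells and the early embryo, had 1023 and 985 units in knockout LT-HSCs against 258 and 1015 units in knockout MPPs, and the populations overlapped (1.06 ± 0.61, adjusted p = 0.597). Tex19.2, its paralog, had 566 and 428 units against 120 and 420 units (1.08 ± 0.62, adjusted p = 0.596). In both genes the first knockout MPP array was the low one. Of 17 germline genes tested 0 were called between the knockout populations by limma. An unadjusted p below 0.05 was found for 1 of them, against 10.1% of all genes, and the median was 0.03. That median ran from -0.62 to 0.53 without the first or the second knockout MPP array. Imprinted genes were at 0.08, with 1 of 18 called, Igf2r, and genes of DNA methylation at 0.18, with 0 of 14 called by limma and 1 at an unadjusted p below 0.05.

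The other lists had medians between -0.58 and 0.22 in knockout cells. Sort and progenitor surface receptors were at -0.58, with Cd34 as their 1 call of 18. Of the 18, 3 were higher and 6 lower at an unadjusted p below 0.05 (4.84% and 5.30% of all genes). Both LT-HSC arrays lay above both MPP arrays in 3 of them and below in 7 (15.7% and 15.5% of all genes). Interferon response genes were at -0.36, adhesion and niche retention genes at -0.32, ribosomal protein genes and immediate early genes at -0.12 and megakaryocyte markers at -0.09. Dendritic cell and MHC class II markers were at 0.11, endothelial and stromal markers at 0.14, and p53 targets and chromatin repressor genes at 0.22, with 0 genes of these 9 lists called by limma. An unadjusted p below 0.05 was found for 10.1% of all genes tested. In these lists it was found for 0 of 23 interferon, 0 of 24 ribosomal and 0 of 14 immediate early genes. The counts were 1 of 18 adhesion genes, 2 of 12 megakaryocyte and 2 of 12 dendritic cell markers, and 1 of 7 stromal markers. Among 19 p53 targets 4 were higher and 1 lower at this p, and among 23 chromatin repressor genes 2 were higher and 1 lower. Phlda3, a p53 target, had 102 and 89.3 units in knockout LT-HSCs against 16.5 and 41.4 units in knockout MPPs (1.48 ± 0.33, adjusted p = 0.0809).

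**Figure D5:**
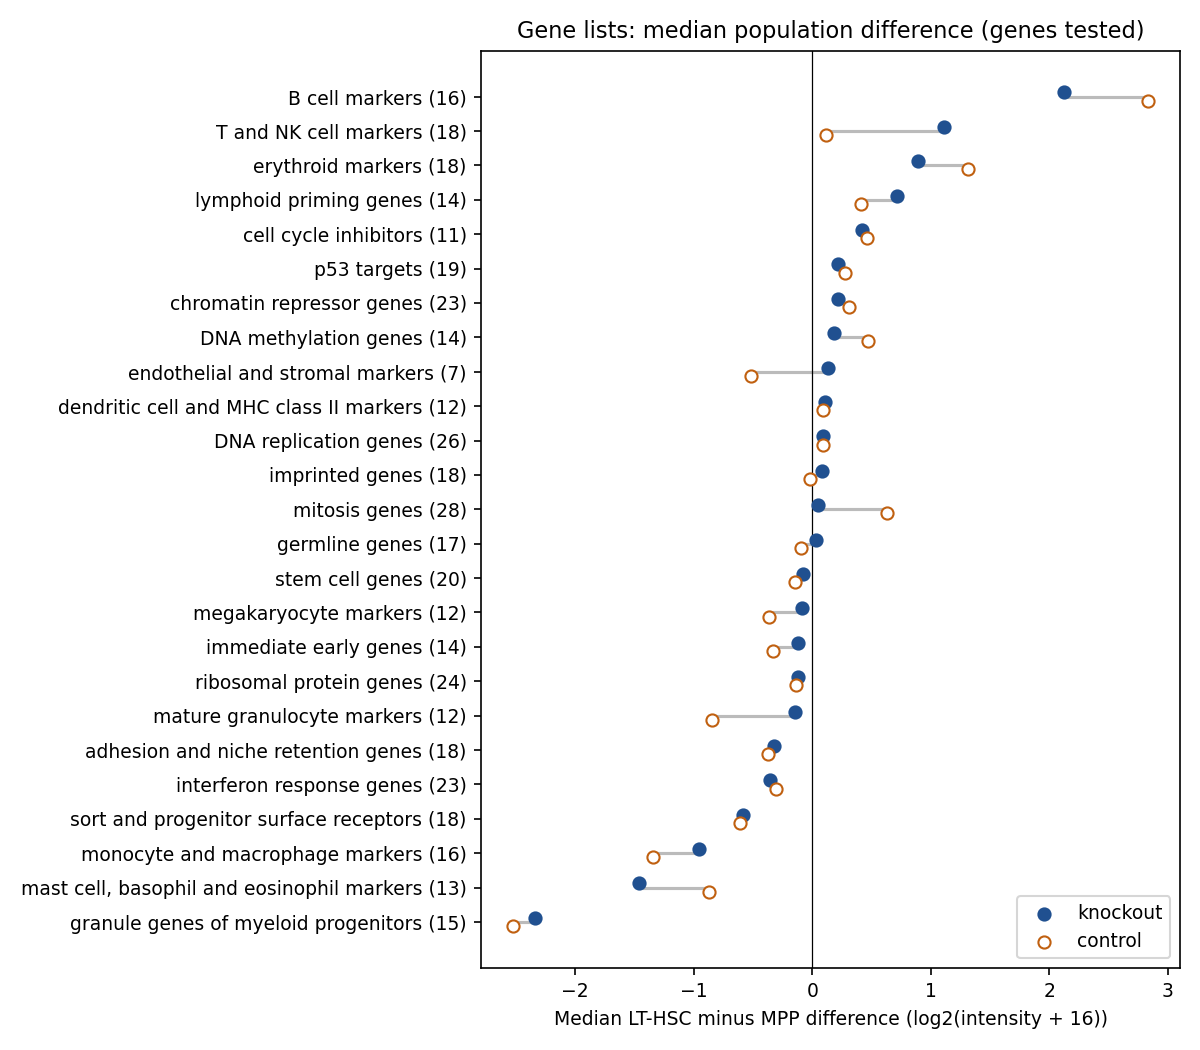
Median LT-HSC minus MPP difference (horizontal axis, log2(intensity + 16)) of each of the 25 gene lists in knockout cells (filled) and control cells (open), with the number of genes tested in brackets. B cell markers, at 2.13 and 2.83, and granule genes, at -2.34 and -2.52, lie at the 2 ends in both genotypes. In the other lists T and NK cell markers, at 1.11 and 0.11, differ most. Next are mature granulocyte markers, at -0.15 and -0.85, and endothelial and stromal markers, at 0.14 and -0.51, with 12 and 7 genes tested. Mitosis genes are at 0.05 and 0.63.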

How the data were processed

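RNA of sorted cells was amplified and hybridized to 1 Affymetrix array per sample (labels' protocols). Each deposited value is a linear-scale intensity of a probe set. The authors' summarisation and scaling are not given in the sources used for this work. From them log2(intensity + 16) was taken and quantile normalized across the 14 arrays, after 64 control probe sets were left out. Of 22690 probe sets, 20380 had 1 gene symbol, 691 several and 1555 none in the platform annotation, and Entrez identifiers of 20351 were found in the RefSeq gene table. Probe sets had to lie above the 40th percentile of an array (19.9 to 26.9 units) on 2 or more arrays, and the brightest per gene was used, which left 8608 of 12393 genes. A gene can pass this filter through 1 group alone, and a value near 1 unit has no further order.

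limma 3.58.1 (R 4.3.3) fitted 6 group means with the trend option (8 residual and, in the median, 5.40 prior degrees of freedom). All p-values are two-sided and adjusted by Benjamini-Hochberg over every gene tested. The fit was tested on simulated data in which differences were added to the knockout LT-HSC arrays. The simulated noise was independent between arrays, with 1 spread per gene for all 6 groups. In the real data the median standard deviation of a gene ran from 0.177 in knockout myeloid progenitors to 0.340 in knockout LT-HSCs. The shares recovered need therefore not hold for the real arrays. The knockout comparison recovered 16.42%, 82.09% and 96.97% of differences of 1, 2 and 3 units. The test of the genotype difference recovered 2.985%, 49.25% and 72.73% of them. The knockout comparison also called 10 genes to which no difference was added. Python 3.11.15 with pandas 2.3.3, numpy 2.4.6 and matplotlib 3.10.9 made tables and figures. The number of arrays limits the precision, and no depth can be stated.

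Control and knockout arrays of the same number came from littermates, per the labels, and the deviations from the group means correlated within these pairs with r of 0.46 in LT-HSCs and 0.60 in MPPs, 1 value per population. The labels do not pair the LT-HSC with the MPP arrays of a genotype.

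The members and the 25 gene lists were chosen with earlier results of these data known. Named genes are Dnmt1, Cd34 and Kit, the 12 largest non-overlapping calls in each direction, the 6 in each direction with the largest difference in both genotypes, the 3 smallest p for the genotype difference in each direction, and called or smallest-p members of the lists; others are said to have been chosen after their values were seen. Ly6a, which encodes the sort marker Sca-1, has no probe set named in the annotation used and was not analysed here. Some genes stand in more than 1 list. Alternatives changed the pseudocount, normalization, filter, probe set choice, arrays fitted, trend, weights and blocks, and left out single arrays.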

Additional observations from a re-analysis of the deposited data

Results flagged for a closer look

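For 7 of the genes examined, the arrays of the 2 populations did not overlap in either genotype and the population with the higher signal changed between the genotypes. In each gene the test of the difference between the genotypes did not pass over all genes, and 121 of the 8608 genes tested showed such a crossing. Rhoc, Itgb3, Samd10, Ankrd33b and Ckap2 were among the genes examined for a small unadjusted p of the genotype difference. That choice favours such a crossing. All control LT-HSC and MPP arrays of Rhoc, and all knockout ones of Ankrd33b, were at or below the array's 40th percentile. In that genotype the order of the populations is thus one of dim signals. For Itgb3 and Samd10 both knockout MPP arrays and both control LT-HSC arrays were at or below that percentile. The knockout minus control difference was 3.20 for Rhoc, 1.74 for Itgb3, an integrin chain of platelets, and 1.83 for Samd10. It was -2.11 for Ankrd33b, -1.57 for Ckap2, -1.60 for Hdac6, a cytoplasmic deacetylase, and -1.18 for Gadd45a, a stress response gene. Itgb3 had 38.4 and 44.8 units in knockout LT-HSCs against 19.7 and 15.0 units in knockout MPPs, and 13.4 and 10.3 units in control LT-HSCs against 49.5 and 26.5 units in control MPPs. Samd10 had 36.5 and 41.8 units in knockout LT-HSCs against 7.96 and 18.7 units in knockout MPPs, and 6.59 and 15.2 units in control LT-HSCs against 40.2 and 26.3 units in control MPPs. Hdac6 had 18.1 and 42.1 units in knockout LT-HSCs against 74.0 and 60.7 units in knockout MPPs, and 150 and 99.5 units in control LT-HSCs against 82.5 and 66.4 units in control MPPs.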

How the results depend on the processing

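No call reversed its direction under the alternatives tried, but the medians of 15 of the 25 gene lists, none above 0.72 in size, changed sign under at least 1 alternative, and those of the other 10 lists did not. The alternatives gave 1560 values for the counts, the list medians, the 44 calls, Dnmt1, Kit and the genes with the smallest p for the genotype difference. Of these values 1164 stayed the same, 348 lost the threshold, 3 gained it and 45 moved. The same meant the same side of the threshold for a gene. For a count it meant a set ratio to the main count, and for a list median a shift within the spread. The 44 knockout calls were 29 with a pseudocount of 1, 22 above the 60th percentile filter, 2 with the 8 LT-HSC and MPP arrays, 9 with the 4 knockout arrays, 8 with array weights and 14 without both LT-HSC arrays numbered 1, an alternative chosen after seeing the data. With a pseudocount of 1 the split was 11 higher and 18 lower, and above the 60th percentile 8 and 14. They were 7 to 277 when single arrays were left out. The 200 control calls were 11 with the 8 arrays, 38 with weights, 34 on their own 4 arrays and 120 without both LT-HSC arrays numbered 1 (both chosen after seeing the data), and 78 (first control LT-HSC array) to 422 (second), 85 and 97 (first and second control MPP array) with single arrays left out. The 33 genes called in both were 19 above the 60th percentile, 2 with the 8 arrays, 6 with weights, 5 with each genotype on its own arrays, 12 without both LT-HSC arrays numbered 1, and 5 to 79 with single arrays left out. Where arrays were left out, fewer arrays set the means, and a lone array was assumed to vary like the other groups; the cause of the other changes was not tested. The 0 genes of the genotype difference became 2 (Rhoc and Ankrd33b) with the littermate pairs as a random block and 0 to 4 with single arrays left out. The 4, without the second knockout LT-HSC array, were Rhoc, Serac1, Them4 and Tnf, and Dgke passed at -4.18 without the second knockout MPP array. With the pairs as a fixed replicate block 0 genes passed. With the random block (within-pair correlation 0.50) 47 knockout calls were made, 34 of them among the 44, with 178 control calls and 42 in both. LT-HSC and MPP arrays share only a number within a genotype. Deviations of the arrays numbered 1 correlated with r of 0.22 in knockout and 0.14 in control cells, and the number as a block gave 39 knockout calls (30 of the 44), 157 control calls and 31 in both.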

Other observations

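Procr, which encodes the EPCR receptor used to mark stem cells, was at 0.49 in knockout and -1.72 in control cells, with an unadjusted p of 0.0388 for the genotype difference. Slpi, a protease inhibitor of leukocytes, was at -0.03 in knockout and -3.15 in control cells (unadjusted p = 0.00281 for the difference), and Alcam, an adhesion molecule, at 0.00 and -2.54 (unadjusted p = 0.00151). Igll1, a surrogate light chain of the pre-B cell receptor, had the largest difference of the B cell markers in knockout cells, at 4.64 ± 1.01, and missed the threshold (adjusted p = 0.0671). All 4 were chosen after their values were seen.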
